A study of Mus musculus with 8 samples.

Results

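m6A peaks that lay wholly within the 3′ UTR of an mRNA were examined in C2C12 myoblasts before and during differentiation. A peak was included when the region label that the authors' peak annotation gave to it was 3′ UTR alone, with no part in the coding sequence (CDS). The 4 deposited peak lists held 25520 such positions among 105669 positions of every kind, where a position is a distinct chromosome, start, end, strand and set of exon blocks. The peaks belonged to 5683 of the 9153 genes with any peak. For comparison, 52945 positions lay wholly within the CDS, and 22058 spanned the CDS and the 3′ UTR and so held the stop codon.

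C2C12 is an immortalized line of mouse myoblasts, and every sample came from this 1 line, grown on collagen, with no genetic change named in the labels. GM stands for proliferating cells collected at 50% confluence from growth medium with 10% fetal bovine serum. For 3d DM, cells past 90% confluence spent 3 days in differentiation medium with 2% horse serum, in which myoblasts leave the cell cycle and fuse. Each state had 2 input libraries of RNA and 2 libraries of RNA precipitated with an antibody against m6A (IP), for 8 libraries in all. The labels number the replicates but do not say that they were separate cultures, so p-values measure no spread beyond these samples. In the RNA test that spread was taken over all genes of like level, not from the replicates of the gene itself. The libraries hold a whole culture, so fewer cells of a type and less RNA per cell cannot be told apart. Values for the 4 libraries are given in the order GM replicate 1, GM replicate 2, 3d DM replicate 1 and 3d DM replicate 2.

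N6-methyladenosine (m6A) is placed on mRNA in the nucleus by a methyltransferase complex built around METTL3 and METTL14, within a short sequence written DRACH, in which D is A, G or T, R is A or G, and H is A, C or T. It is best known around the stop codon and in the 3′ UTR, where YTH-domain proteins bind it and where microRNAs and RNA-binding proteins also meet the mRNA to set its stability, location and translation. During myogenesis the transcripts of cell cycle genes and of several members of the MyoD and MEF2 families of transcription factors change in level as cells leave the cycle.

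The DRACH words below are shown because they lay under the peaks that the results turn on. Each is a 29-base stretch of the mm10 genome (RefSeq GRCm38) in the sense of the transcript, 5′ to 3′, with 12 bases on each side of the word nearest to the middle of the bases that the peaks of all 4 lists covered, or for *Id3* those of both GM lists. GGACT was preferred where present, and capitals mark the word. Words on lower-case sequence of the genome file, which marks repeats, were left out. A word under a peak is a description of sequence, since MeRIP-seq does not resolve the modified base. The first 3 lay in 3 of the 8 peaks of highest fold. Of the other 5, *B4galt7*, *Gen1*, *Gtpbp3* and *Tnfrsf10b* had their word wholly on lower-case sequence and none of these words was GGACT, and *Zc3hav1* had no DRACH word in the bases common to all lists. The 3 shown lay in the 3′ UTR of *Zdhhc20* at chr14:57834867-57834895 on the minus strand, of *Sema4b* at chr7:80225710-80225738 on the plus strand, and of *D17H6S53E* at chr17:35128580-35128608 on the plus strand.
Zdhhc20: gtgtgcacaataGGACTgtggagaaggca
Sema4b: ccctccccgactGGACTattctaccttcc
D17H6S53E: ccttggatcctaGGACTagaaccgtttag
The next words came from some of the peaks with large differences in fold or host RNA between GM and 3d DM. *Gen1* and *Ube2c*, the first by fold and by fall in RNA, are not shown since their words lay on lower-case sequence, and *Tmem120b* had no DRACH word in the bases common to all lists. Those shown were in *Enoph1* at chr5:100068345-100068373 (plus), *Lyn* at chr4:3790431-3790459 (plus), *H2afx* at chr9:44335944-44335972 (plus), *Erbb3* at chr10:128567780-128567808 (minus) and *Mybph* at chr1:134201155-134201183 (plus).
Enoph1: ccgctgcactaaGGACTcacggcccagcg
Lyn: ccccagaaaatgAGACTattgaacatttt
H2afx: gaatccctgtctGGACTgagcctctggct
Erbb3: ggagatgacacaGGACAagtaactagaca
Mybph: cagaaggggcagAGACTggcaccctcttc
The last words came from regulators of myogenesis, of the cell cycle and of m6A itself, in *Pax7* at chr4:139738884-139738912 (minus), *Id3* at chr4:136145027-136145055 (plus), *Cdk4* at chr10:127067499-127067527 (plus), *Alkbh5* at chr11:60557931-60557959 (plus) and *Fto* at chr8:91666808-91666836 (plus).
Pax7: tcttcaaggtctGGACAagaggaaagcca
Id3: agcccgagagaaGGACTgaacttgggtgg
Cdk4: cctgctttgatgAGACTgtaggtggggct
Alkbh5: agtgttaagcaaGGACTctaccactgatc
Fto: tgacagaactagAGACAtccatcccagct

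The input RNA carried the markers of myoblasts and of their differentiation. The summed normalized values of the 5 myoblast markers were between 41421 and 59458 in the 4 input libraries. *Vim* made up most of this sum in GM (38643 and 41760, against 9851 and 12292 in 3d DM) and *Des* the largest part in 3d DM (21225 and 23528, against 12764 and 5945 in GM), while *Myod1* was between 1016 and 1713. Those of the 6 differentiation markers, such as *Myog* and *Myh3*, were 5114 and 1163 in GM against 95442 and 132768 in 3d DM, and those of the 4 proliferation markers were 11297 and 12709 in GM against 1224 and 2362 in 3d DM. All 5 adipocyte markers were below 1 in every library, the 4 endothelial markers summed to at most 10.5 and the 4 immune markers to at most 26.4, mostly *Cd68*. Of the neuronal markers *Tubb3* alone was above 3 in any library (486 to 1785), with *Rbfox3*, *Snap25* and *Syt1* at or near 0.

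Peaks within the 3′ UTR made up about 1 in 4 peaks of a list, in GM as in 3d DM. There were 6959 and 6202 in GM against 7800 and 5710 in 3d DM, which was 22.9% and 24.0% of the positions of the GM lists and 25.7% and 24.8% of those of 3d DM. The share was 23.4 ± 0.8% (SD, n = 2) in GM and 25.2 ± 0.6% in 3d DM, and the libraries of the states did not overlap. The difference of -1.77 percentage points had a two-sided exact permutation p of 0.33, the smallest that 2 libraries against 2 can give. The share of peaks spanning the stop codon was 21.2% and 25% in GM against 19.2% and 20.1% in 3d DM.

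The number of genes carrying such a peak varied within a state as much as between them. It was 3438 and 3204 in GM against 3705 and 2970 in 3d DM, which was 44.7 to 49.6% of the genes with any peak in a list. The means of 3321 ± 166 (SD, n = 2) and 3338 ± 520 differed by less than the replicates (exact permutation p = 1). For 41.9 to 50.0% of these genes the 3′ UTR held the only peaks of the gene, and 24.2 to 30.7% had a peak over the stop codon as well. Genes with a 3′ UTR peak had annotated 3′ UTRs of a median 1509 to 1757 nt, against 955 to 1004 nt for the other genes with peaks.

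**Figure D1:**
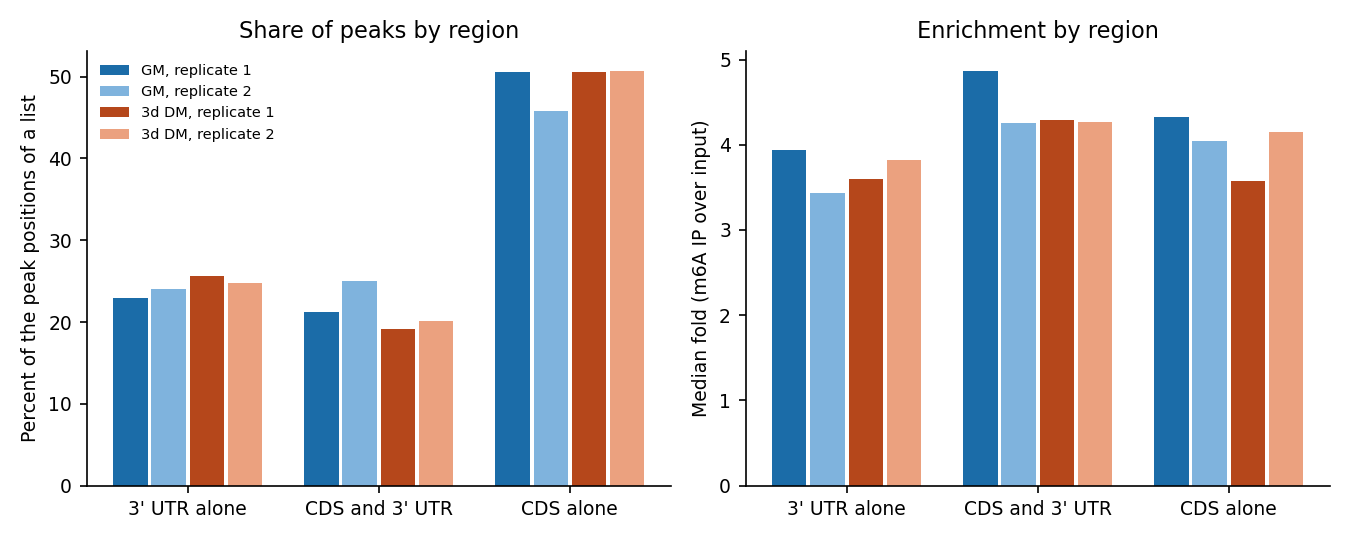
Left, percent of the peak positions of each list that lay in the 3′ UTR alone, over the stop codon (CDS and 3′ UTR) or in the CDS alone; right, median fold of IP over input for the same peaks. Each bar is 1 library, in blue for GM and orange for 3d DM, and the 3′ UTR share lay between 22.9 and 25.7% with median folds between 3.43 and 3.94.

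The enrichment of the 3′ UTR peaks did not differ between the states beyond the spread of the replicates. The fold, which is the ratio of IP over input RNA given by the authors' peak caller, had medians of 3.94 and 3.43 in GM against 3.6 and 3.82 in 3d DM. The GM and 3d DM values overlapped, with means of 3.69 ± 0.36 (SD, n = 2) and 3.71 ± 0.16 (exact permutation p = 1). The middle of the distribution ran from a lower quartile of 2.45 to 2.73 to an upper quartile of 5.41 to 6.41, and the highest folds were 164, 96.2, 101 and 70.1.

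Peaks over the stop codon had the higher median folds, by a small margin. Their medians were 4.86 and 4.26 in GM against 4.29 and 4.27 in 3d DM, above the 3′ UTR in 4 of 4 libraries, with a mean log2 difference of -0.26 for the 3′ UTR (two-sided exact sign-flip permutation test, at the smallest p that 4 libraries allow, which is above the threshold). CDS peaks had medians of 4.32, 4.04, 3.57 and 4.15, higher than the 3′ UTR in 3 of 4 libraries by a mean log2 difference of -0.12 for the 3′ UTR (exact sign-flip permutation p = 0.25). Among peaks with a fold of at least 4 the mean log2 differences were 0.04 and 0.03, so neither kept its sign there. The 3′ UTR peaks were also short, with a median of 179 to 181 nt against 208 to 240 nt in the CDS and 359 to 480 nt over the stop codon. Between 40.8 and 48.6% of them had a p of at most 1e-05, against 77.7 to 84.3% of the peaks over the stop codon.

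Folds between 10 and 20 did not form a continuous scale. Between folds of 10 and 20 the 802 and 565 positions of GM and the 656 and 714 of 3d DM took no more than 54 distinct values, and 84.0 to 92.0% of them fell within 0.06 of a whole multiple of 1 step. Bounds of that width take up 11.4 to 15.3% of the range. The folds named here in this range have no more than 1 decimal place, and rounding by itself limits the number of distinct values. The step was 0.88 and 0.78 in GM against 1.06 and 0.83 in 3d DM, chosen for each list after seeing its values as the step that took in the most positions. Between folds of 4 and 5 no more than 18.1% of the positions of a list fell on its step. The commonest value of the 3d DM replicate 1 list, a fold of 12.7, stood for 112 positions. Positions on the steps had a median p of 3.1e-04 to 5.2e-04 and a median length of 121 to 151 nt. Among the values of the genes named here that lay between 10 and 20, 14 of 14, 10 of 11, 12 of 16 and 19 of 23 were on the steps. Read numbers are not part of the lists, and the reads behind a fold were not seen.

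High folds were also more frequent on sequence that the genome file prints in lower case, which marks interspersed repeats and low-complexity DNA. Such bases made up 15.2 to 19.0% of the 3′ UTR peaks and 16.7 to 17.2% of the rest of the same 3′ UTRs. They made up 13.1 to 14.9% of the peaks below the first quartile of fold, 18.4 to 23.9% of those above the third quartile, and 33.2 to 42.3% of the 100 peaks of highest fold. The 8.31 to 10.7% of peaks with at least 50% such bases had median folds of 5.08 to 6.12, against 3.37 to 3.85 for the others. How reads that fit several places were assigned is not given in the sources used here, and the part of repeats in the high folds was not tested.

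Within the 3′ UTR, the parts nearest the CDS and nearest the end held more peaks than the parts between them. On the GENCODE M21 transcripts named in the lists, 94.3 to 94.7% of the positions of a list could be placed. The middle of a peak lay a median 550 and 515 nt past the end of the CDS in GM and 542 and 482 nt in 3d DM, which was 48.4, 52.2, 47.1 and 52.4% of the length of the 3′ UTR. The distances differed by 20.6 nt between the states (exact permutation p = 0.67), and the relative positions by less than the replicates (exact permutation p = 1). When the room a peak had to move within its 3′ UTR was divided into 4 equal parts, 31.4 to 34.6% of peaks lay in the part nearest the CDS and 30.4 to 38.7% in the part nearest the end, and 16.3 to 19.3% and 13.1 to 17.1% in the parts between them.

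A peak that reached the annotated end of the transcript was found in 14.5% and 18.8% of cases in GM and 14.8% and 23.3% in 3d DM. Such peaks were counted in the part nearest the end, and how the other peaks divided over the parts was not worked out. The middle of the other peaks lay at a median 40.57% and 42.15% of the 3′ UTR length in GM and 38.81% and 38.53% in 3d DM, nearer to the CDS. The number 2 replicate was the higher one in each state. Peaks at the end had median folds of 3.28 to 3.71, against 3.44 to 4.06 for the other peaks. Only 0.29 to 0.60% of 3′ UTR peaks crossed a splice junction, against 50.0 to 55.9% of CDS peaks. Few had a junction to cross, since 7.75 to 8.22% of the placed peaks lay in a 3′ UTR of more than 1 exon.

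The 3′ UTR peaks were richer in the GGACT word than the 3′ UTR around them. Words were counted on the strand of the transcript, per kb of peak and per kb of the remaining 3′ UTR of the same transcripts. GGACT, the most usual m6A word, stood at 1.48 and 1.66 per kb of peak in GM and 1.51 and 1.65 in 3d DM, with ratios to the rest of 1.61, 1.75, 1.68 and 1.77. It was followed by GGACA (ratios 1.52 to 1.69) and GGACC (1.47 to 1.65), whereas TAACT (0.71 to 0.80) and TAACA (0.75 to 0.86) were rarer in peaks than around them. All DRACH words together, which include those named, had ratios of 1.19 and 1.17 in GM against 1.15 and 1.17 in 3d DM, above 1 in 4 of 4 lists. The same pattern with its A and C exchanged, used as a control, had ratios of 1.02 to 1.06. The DRACH ratio was 1.18 ± 0.01 (SD, n = 2) in GM and 1.16 ± 0.01 in 3d DM (exact permutation p = 0.33), while for GGACT alone the means were 1.68 ± 0.10 and 1.72 ± 0.06, with GM the lower.

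Nearly every peak held some DRACH word. DRACH was found in 93.4 to 94.9% of peaks and the control pattern in 90.3 to 91.4%. Among peaks for which a window of the same length could be laid elsewhere in the same 3′ UTR, 24.3 to 27.8% held GGACT, against 16.4 to 18.9% of those windows. For DRACH the shares were 93.0 to 94.4% and 91.3 to 92.6%, and for the control pattern 89.4 to 90.6% and 88.4 to 90.3%. Per kb, GGACT was rarer under CDS peaks (1.15 to 1.23) and peaks over the stop codon (1.39 to 1.53) than under the 3′ UTR peaks of the same list. All DRACH words together did not differ in this way. They stood at 22.9 to 23.3 per kb under CDS peaks, 23.0 to 23.3 over the stop codon and 22.7 to 23.3 under 3′ UTR peaks. Ratios to the surrounding sequence were not worked out for the CDS and stop codon peaks.

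The words were denser near the middle of the peaks than at their flanks. In GM replicate 1 there were 25.1 DRACH words per kb in the 50 nt before the centre, against 20.5 per kb at 450 to 500 nt upstream and 19.6 per kb at the same distance downstream. In 3d DM replicate 1 the same bins held 24.3, 20.7 and 19.3 words per kb. GGACT stood at 1.46 to 1.84 per kb in the 50 nt before the centre and at 0.63 to 0.94 per kb at the far downstream end in the 4 lists. The control pattern held 18.4 to 20 words per kb beside the centre and 17.7 to 18.1 at that end.

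**Figure D2:**
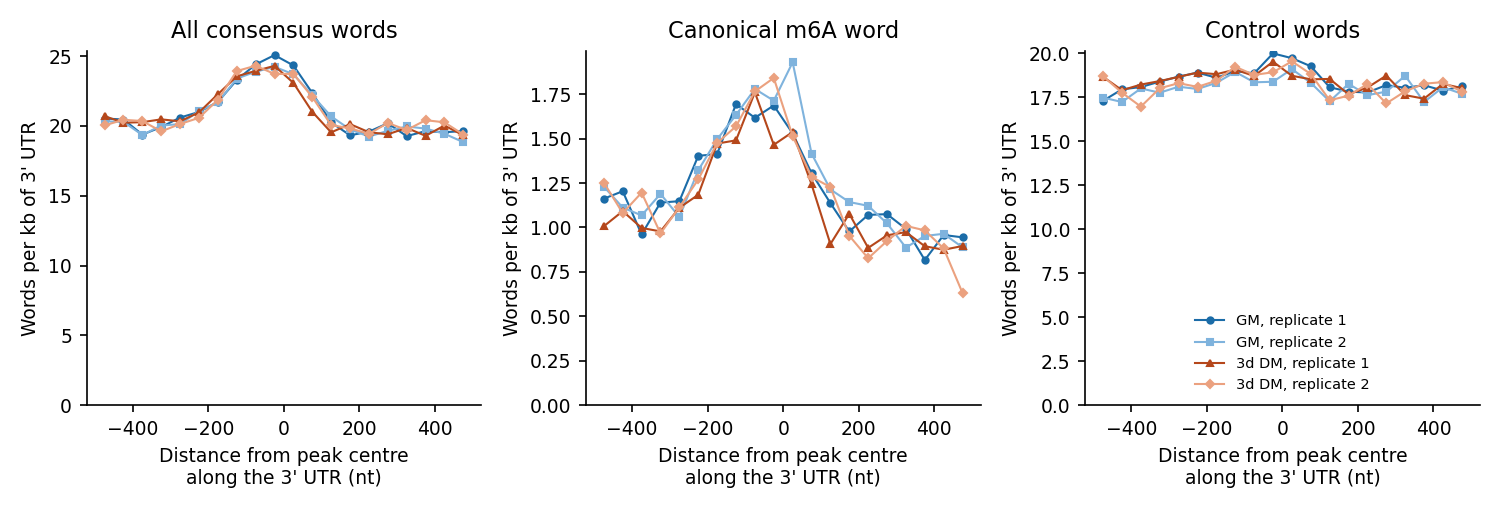
Words per kb of 3′ UTR in bins of 50 nt by distance from the centre of the peaks, upstream to the left, for all DRACH words, for GGACT (canonical m6A word) and for the control pattern. Each line is 1 list, and DRACH words stood at 23.7 to 25.1 per kb just before the centre, against at most 20.7 at the upstream edge and 18.8 to 19.6 at the downstream edge.

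Peaks of higher fold held more DRACH words. With the peaks of a list split into 4 equal classes of fold, the density went from 21.6 per kb in the lowest class to 24.9 in the highest in GM replicate 1, from 21.5 to 24.5 in GM replicate 2 and from 21.6 to 24.5 in 3d DM replicate 1. In 3d DM replicate 2 it went from 21.1 to 23.9, and the class below the highest held the most (24.6). The control pattern also went up, from 17.4 to 18.2 per kb in the lowest class to 18.6 to 19.7 in the highest. Peaks that no other list overlapped held GGACT in 10.2 to 22.7% of cases, and peaks overlapped in the 3 other lists in 34.8 to 41.2%. The latter were also longer (medians of 210 to 301 nt against 91 to 120 nt), so these shares are not on equal length. Per kb, GGACT stood at 1.00 to 1.19 in the former and 1.58 to 1.79 in the latter in 3 lists, while in GM replicate 2 it stood at 1.96 and 1.63.

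Other words of the 3′ UTR were counted in the same way. AATAAA, the signal for cleavage and polyadenylation, had ratios of 1.24, 1.21, 1.28 and 1.88. Peaks that reached the annotated end had ratios of 6.59 to 9.23 for it, and the others 0.68 to 1.04. The AU-rich word ATTTA, bound by decay factors such as tristetraprolin, was rarer in peaks than around them (0.61 to 0.83), as was TGTANATA, the Pumilio site (0.60 to 0.95). Among peaks at the annotated end, ATTTA had ratios of 1.16, 0.92, 1.24 and 1.10 and TGTANATA ratios of 1.18, 1.28, 1.59 and 1.63. Among the peaks elsewhere in the 3′ UTR the ratios were 0.585 to 0.80 for ATTTA and 0.49 to 0.84 for TGTANATA. The lower densities thus came from these peaks, except that ATTTA in GM replicate 2 was below 1 at the end as well. GC content was 45.9 to 49.4% in the peaks and 44.1 to 45.1% in the rest.

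Sites for microRNAs of muscle showed no common direction. The 3 mature sequences below, from RefSeq, are shown because their seeds (bases 2 to 8, in capitals) gave the matches that were searched, and because miR-206 and miR-133b are muscle-specific microRNAs.
miR-206-3p: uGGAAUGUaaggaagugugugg
miR-133b-3p: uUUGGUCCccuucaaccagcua
miR-26a-5p: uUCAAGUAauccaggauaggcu
The match to the miR-133b seed, GGACCAA, had ratios of 1.57 to 1.72 with 68 to 108 matches a list, and this match holds the enriched word GGACC within it. The match to the miR-26a seed, TACTTGA, had ratios of 0.56 to 0.70 with 37 to 52 matches. The match to the miR-206 seed, ACATTCC, had ratios of 1.00 to 1.21, and those to let-7a (CTACCTC), miR-24 (CTGAGCC) and miR-29a (TGGTGCT) lay between 0.91 and 1.20.

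The bounds of a 3′ UTR peak seldom recurred, while its place often did. Of the 25520 positions, 24488 were in 1 list with exactly these bounds and 12 in all 4. By an overlap of at least 1 base on the same strand with a peak of any label, a median 66.5% of the 3′ UTR peaks of a list were met in the other list of their state (range 49.2 to 73.4%). The median was 61.9% (48.4 to 70.4%) for lists that shared neither state nor number, and 65.9% (52.5 to 71.1%) for lists of the same number. The corresponding medians were 71.1%, 69.0% and 71.4% for CDS peaks and 89.1%, 87.4% and 89.1% for peaks over the stop codon. These shares are descriptions, and the ranges of the 3 kinds of list pair overlapped for 3′ UTR peaks. When each peak had to share 50% of its length, the median within a state was 43.1%.

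By gene, 1387 genes had a 3′ UTR peak in all 4 lists, 1107 in 3, 1259 in 2 and 1930 in 1. After positions of the 4 lists that shared at least 1 base were merged, 6167 of 19516 merged peaks were labelled 3′ UTR throughout, and 1069 of these were found in all 4 lists. Another 258 were in both GM lists alone and 202 in both 3d DM lists alone. For comparison, 367 were in both number 1 lists alone and 144 in both number 2 lists alone.

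*Nt5dc3*, a gene of the 5′-nucleotidase domain family, had 3 merged 3′ UTR peaks found in all 4 lists, more than any other gene. Their folds were 4.87, 7.04, 4.28 and 6.01 for the first, 5.47, 15.6, 6.08 and 15.9 for the second, which was 89.1% lower-case sequence, and 3.21, 3.06, 2.60 and 2.81 for the third, along a 3′ UTR of 4206 nt. A further 57 genes had 2 such peaks. Of these *Car5b*, a mitochondrial carbonic anhydrase, and *Tbck* had the highest mean fold, and 1 of the *Car5b* peaks lay wholly on lower-case sequence. The *Car5b* peaks had folds of 15.7, 19.6, 21.2 and 17.5 and of 21.9, 29, 60.3 and 13.4. Those of *Tbck* had folds of 4.96, 5.67, 15.3 and 12.5 and of 28.9, 18.8, 25.4 and 17.5.

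The peaks of highest fold were in genes of varied function, and 8 are named by their mean log2 fold over the 4 lists. *B4galt7*, a galactosyltransferase that builds the linker of proteoglycans, had folds of 31.5 and 96.2 in GM against 101 and 55.9 in 3d DM over 8 positions at chr13:55609422-55610443. These took up nearly all of its 1068 nt 3′ UTR. *Zdhhc20*, a protein palmitoyltransferase, had folds of 61.2 and 38.3 in GM against 48.1 and 33.0 in 3d DM at chr14:57834681-57835191, from 1495 to 2005 nt into a 3′ UTR of 3983 nt. *Sema4b*, a transmembrane semaphorin, had folds of 44.2 and 24.4 in GM against 74.1 and 41.8 in 3d DM at chr7:80225427-80226411. In these 3 genes the values of both states overlapped, and both of the GGACT words shown for *Zdhhc20* and *Sema4b* lay inside the bases common to all lists.

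Of the other 5 peaks of this rank, 3 also had overlapping values, while *D17H6S53E* and *Gen1* were higher in both GM lists, as were 21.7% of all merged peaks found in all 4 lists. *D17H6S53E* had folds of 30.6 and 44.6 in GM, both above the 28.6 and 19.2 of 3d DM, and lay from 205 to 859 nt, the end of its 3′ UTR. *Gtpbp3*, a GTPase that modifies mitochondrial tRNA, had folds of 25.4, 67.3, 32.8 and 23.4. *Tnfrsf10b*, the death receptor for TRAIL, had folds of 28.9, 32.1, 67.7 and 17.5, on a stretch that was 96.3% lower-case sequence. In *Zc3hav1*, the zinc finger antiviral protein, the folds were 31.9, 59.5, 46.6 and 10.0. The widest gap was in *Gen1*, a nuclease that resolves DNA junctions, with folds of 164 and 75.9 in GM against 10.6 and 14.2 in 3d DM at chr12:11239249-11239728. Its peak was 69.6% lower-case sequence, and in the other 7 genes that share was 28.9 to 96.3%.

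**Figure D3:**
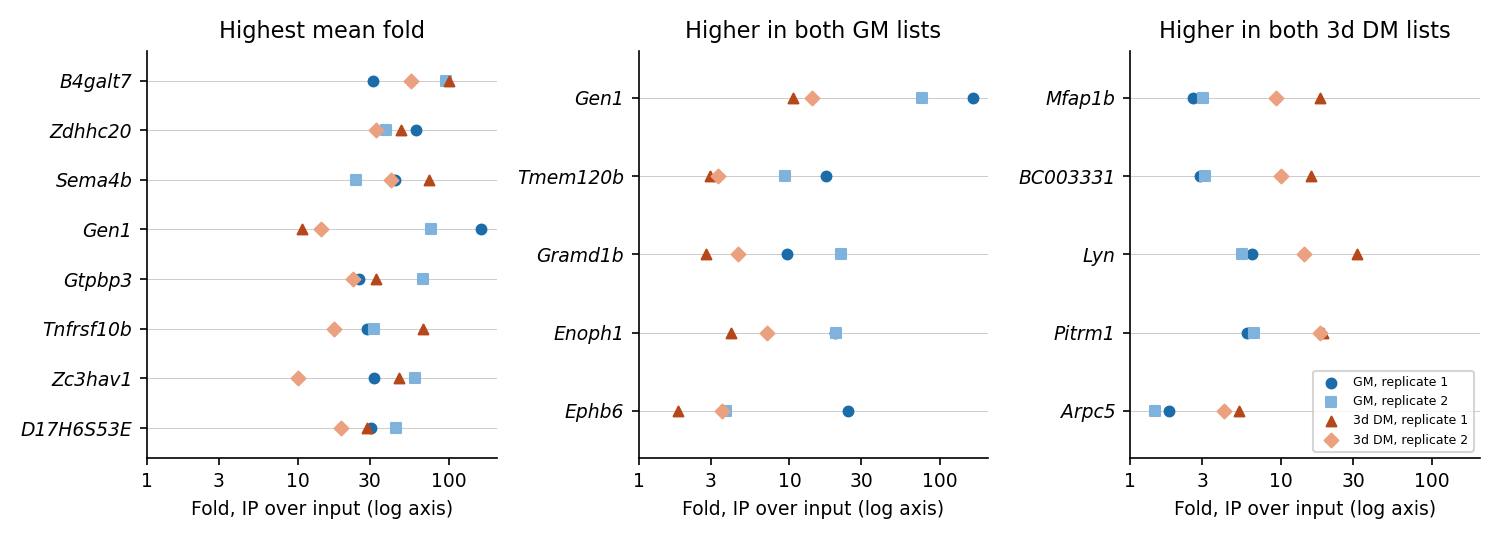
Fold of IP over input, on a log axis, of merged 3′ UTR peaks found in all 4 lists: the 8 genes of highest mean fold, and the 5 in each direction with the largest difference among those whose GM and 3d DM values did not overlap. Each point is 1 library, and the 2 right panels show peaks chosen for their difference, as in *Gen1* with 164 and 75.9 in GM against 10.6 and 14.2 in 3d DM.

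No 3′ UTR peak changed its fold between GM and 3d DM beyond the error. limma, fitted on the log2 fold of 5976 merged peaks of every label found in all 4 lists, called 0 of the 1069 3′ UTR peaks at an adjusted p under 0.05, and 0% of all the peaks fitted. The lowest adjusted p was 0.85, and 51 of the 1069 had an unadjusted p under 0.05, 21 with the higher fold in GM and 30 in 3d DM. The log2 differences, GM minus 3d DM, had a median of 0.03 and quartiles of -0.32 and 0.33 with a median standard error of 0.46, and the median over all fitted peaks was 0.11. Folds of both GM libraries lay above both 3d DM libraries for 190 (17.8%) of the 1069, where 21.7% of all fitted peaks did, and below them for 149 (13.9%), where 9.22% of all did. In simulated data of this size the test called 0 of 200 peaks with a log2 difference of 1 and 174 of 200 with a log2 difference of 2. A change of 2-fold was thus not detectable in this setting. Simulated peaks of like fold shared 1 spread, while real peaks differed in theirs, so the recovery at a log2 difference of 2 may be overstated.

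The largest differences are given as values only, since size chose them. Among peaks higher in GM after *Gen1* (log2 difference 3.18 ± 0.90 SE, limma adjusted p = 0.99), *Tmem120b* had folds of 17.5 and 9.39 in GM against 2.97 and 3.34 in 3d DM. *Enoph1*, an enzyme of methionine salvage, had folds of 20.1 and 20.3 in GM against 4.08 and 7.1 in 3d DM at chr5:100068199-100068494. The 60 bases common to all 4 lists held 1 GGACT word, the one shown. *Gramd1b*, a carrier of sterol in the endoplasmic reticulum, had folds of 9.62 and 21.9 against 2.82 and 4.59, although its peaks shared no base in all 4 lists. In *Ephb6*, a kinase-inactive ephrin receptor, 1 GM library alone stood apart, with folds of 24.5 and 3.77 in GM against 1.83 and 3.59 in 3d DM.

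Among peaks higher in 3d DM, *Lyn*, a tyrosine kinase of the Src family, had folds of 6.41 and 5.48 in GM against 31.7 and 14.2 in 3d DM at chr4:3790024-3790718. *Mfap1b*, one of a pair of near-identical genes for a spliceosome protein whose reads can be split between the copies, had folds of 2.62 and 3.05 against 18 and 9.19. *BC003331* had folds of 2.90 and 3.13 against 15.9 and 10.0. *Pitrm1*, a mitochondrial protease, had folds of 5.95 and 6.65 against 19 and 18, and its peak overlapped one of *Pfkp* on the other strand. *Arpc5*, a subunit of the Arp2/3 complex that nucleates actin, had folds of 1.82 and 1.46 against 5.29 and 4.18. The limma adjusted p of these 10 peaks was 0.85 to 0.99.

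Among the host genes called for RNA, the RNA did not follow these differences in a common direction. *Tmem120b*, *Lyn*, *Mfap1b*, *BC003331* and *Pitrm1* were not called. Of all genes tested, 9.96% had more RNA in GM and 7.01% had more in 3d DM. *Gen1* and *Enoph1*, with the higher folds in GM, also had more input RNA in GM (196 and 223 against 25.7 and 34.8 for *Gen1*, limma adjusted p = 3.7e-06, and 202 and 262 against 57.6 and 76.2 for *Enoph1*, adjusted p = 0.0036). *Gramd1b* and *Ephb6* had less RNA in GM (adjusted p = 0.046 and 0.010), and *Arpc5*, with the lower fold in GM, had more (adjusted p = 0.010). *Gen1* lost its call without 3d DM replicate 1 (adjusted p = 0.062). Each of the other 4 lost it without 3d DM replicate 1, without 3d DM replicate 2 and without GM replicate 2, and *Ephb6* and *Arpc5* also without GM replicate 1, with adjusted p-values up to 0.72.

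Of 22 regulators of myogenesis, 19 had a peak somewhere and 16 had one within the 3′ UTR in at least 1 list, but only *Pax7* and *Six4* had one in all 4. The fold given for a gene is the highest of its 3′ UTR peaks in a list. *Pax7*, the factor that marks muscle stem cells, had folds of 20.1 and 9.39 in GM against 25.4 and 6.68 in 3d DM, at normalized RNA values of 55.7, 50.2, 51.5 and 77.8. *Six4*, a homeobox factor of the myogenic programme, had folds of 8.12, 6.55, 13.8 and 4.68. Neither passed the RNA test (limma adjusted p = 0.85 and 0.81).

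The inhibitors of differentiation *Id1*, *Id2* and *Id3*, which hold back MyoD by binding its E-protein partners, had a 3′ UTR peak in both GM lists and no peak of any kind in 3d DM. Their folds in GM were low, at 1.73 and 3.34 for *Id1*, 2.26 and 1.76 for *Id2* and 2.32 and 2.78 for *Id3*. Their RNA was higher in GM, with *Id3* at 573 and 1262 in GM against 31.8 and 79.2 in 3d DM (log2 difference 4.05 ± 0.47 SE, limma adjusted p = 9.5e-16). The log2 differences of *Id1* and *Id2* were 1.59 (adjusted p = 0.0057) and 1.68 (adjusted p = 0.0025). Each of the 3 lost its call without 3d DM replicate 1 (adjusted p = 0.40, 0.15 and 0.052). *Id1* also lost it without 3d DM replicate 2 or GM replicate 2 and when the libraries were rescaled by median-of-ratios or trimmed-mean factors (0.087 and 0.084), and *Id2* without any 1 of the libraries.

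The opposite pattern of peaks was seen for activators. *Myog*, *Mef2a*, *Mef2c* and *Tcf3* had 3′ UTR peaks in the 3d DM lists alone, while each also had peaks of some label in at least 1 GM list. The folds were 1.27 and 1.88 for *Myog*, the factor that starts terminal differentiation, 3.81 and 3.46 for *Mef2a*, 2.97 and 2.71 for *Mef2c*, and 2.45 and 3.26 for *Tcf3*, the E-protein partner of MyoD. *Mef2c* RNA was 81.0 and 68.2 in GM against 2742 and 2182 in 3d DM (log2 difference -5.02, adjusted p = 8.7e-27), and was called also when each library was left out in turn. *Myog* was also higher in 3d DM (-4.06, adjusted p = 2.6e-20) but lost its call without either 3d DM replicate (adjusted p = 0.066 and 0.084). *Tcf3* went the other way, with more RNA in GM (1.25, adjusted p = 0.024), and lost its call without 3d DM replicate 1 or either GM replicate. *Mef2a* RNA was higher in 3d DM (-1.37, adjusted p = 0.012), a call lost without any 1 of the libraries.

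The remaining regulators had their 3′ UTR peaks in other combinations. *Mymx*, the fusion peptide myomixer, had folds of 12.2 and 4.27 in GM and 2.47 in 3d DM replicate 1, while its RNA was 68.8 and 9.06 in GM against 603 and 1327 in 3d DM (log2 difference -5.08, limma adjusted p = 3.4e-23). Its partner in fusion *Mymk* had a 3′ UTR peak in 3d DM replicate 2 alone (1.96). *Eya1*, a cofactor of *Six4*, had folds of 4.05, 6.04 and 12.7 in the first 3 lists and more RNA in GM (1.62, adjusted p = 0.0061). *Mef2d* had folds of 2.01, 2.6 and 2.25 in the last 3 lists, and *Tcf4* of 5.25, 7.21 and 5.45 in all but GM replicate 2. *Tcf12* had a peak in 3d DM replicate 1 alone (2.08), and *Msc*, a repressor of MyoD activity, in GM replicate 2 alone (5.22). Without either 3d DM replicate *Mymx* lost its call (adjusted p = 0.077 and 0.087), as did *Eya1*, which also lost it without GM replicate 1.

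Of the 5 myoblast markers, *Ncam1* and *Vim* had a 3′ UTR peak in all 4 lists. *Ncam1*, a cell adhesion molecule, had folds of 7, 2.72, 4.13 and 4.73 and RNA of 1524 and 1186 in GM against 6414 and 8894 in 3d DM (log2 difference -2.49, limma adjusted p = 4.2e-08), and was called also without each library in turn. *Vim*, the intermediate filament vimentin, had folds of 1.56, 1.23, 1.52 and 2.46 and more RNA in GM (1.87, adjusted p = 4.8e-05), a call lost without either 3d DM replicate (0.11 and 0.061).

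The other gene groups, each a list by textbook role, were read by how many members had a 3′ UTR peak in all 4 lists and how many of those passed the RNA test, in which 9.96% of all genes tested had more RNA in GM and 7.01% had more in 3d DM. Of 53 factors that bind the 3′ UTR or degrade mRNA, 30 had such a peak in some list and 10 in all 4. The RNA of the 10 had limma adjusted p-values of 0.070 to 0.95. *Tnrc6c* and *Tnrc6b*, the partners of Argonaute in microRNA silencing, had folds of 9.62, 14.9, 5.64 and 9.19 and of 13.1, 4.30, 11.6 and 4.45. *Upf1*, the helicase of nonsense-mediated decay, had folds of 5.03, 9.66, 6.54 and 7.63. The others were *Khsrp*, *Ago2*, *Mbnl1*, *Mbnl2*, *Celf1*, *Celf2* and *Pum2*, with folds between 1.74 and 4.89. Of the 18 writers, erasers and readers of m6A, 6 had a 3′ UTR peak in some list, and in all 4 only the demethylases did. *Alkbh5* had folds of 3.76, 2.71, 3.99 and 2.62 and *Fto* of 2.17, 2.17, 1.6 and 2.1, and their RNA had limma adjusted p-values of 0.97 and 0.24.

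Among 28 immediate early factors, *Mafk* (folds 5.83, 14.1, 6.11 and 11.3), *Egr2* (11.4, 10.2, 4.87 and 10.0) and *Klf9* (6.12, 6, 12.5 and 11.7) had a 3′ UTR peak in all 4 lists. Among 47 feedback inhibitors of signalling these were *Tnfaip3*, *Ski*, *Grem1* and *Socs2*, with folds between 2.04 and 9.37. The RNA of the 7 genes of these groups had limma adjusted p-values of 0.068 (*Grem1*) to 0.95. Of 35 histone lysine methyltransferases and demethylases, 22 had a 3′ UTR peak in some list and 5 in all 4. *Kdm4b* had folds of 27.1 and 5.04 in GM against 9.10 and 7.85 in 3d DM, and *Kdm5b* of 21 and 4.26 and of 5.95 and 4.07, with GM replicate 1 the highest in both. *Kdm5b* alone passed, with more RNA in 3d DM (log2 difference -1.52, limma adjusted p = 0.0087), and lost its call without GM replicate 2 (adjusted p = 0.66) or either 3d DM replicate.

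Of 38 cell cycle factors, 18 had a 3′ UTR peak in some list and 3 in all 4, of which 2 were higher in GM. *Cdk4*, the kinase that drives cells out of G1, had folds of 4.67, 8.12, 8.29 and 3.20 and RNA of 4552 and 4119 in GM against 1192 and 1879 in 3d DM (log2 difference 1.53 ± 0.41 SE, limma adjusted p = 0.0021). Its call was lost without 3d DM replicate 1 or either GM replicate (adjusted p = 0.11 to 0.16). *Ccne2*, cyclin E2, is described with the RNA changes. *Cdc25a*, the phosphatase that activates the kinases of the cycle, had folds of 4.87, 8.14, 4.76 and 14.2, with an adjusted p of 0.079 for its RNA.

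Of 32 sarcomere genes, 11 had a 3′ UTR peak in some list and 6 in all 4, and 5 of the 6 had more RNA in 3d DM. They were *Mybph*, *Tnni1*, *Ldb3*, *Ttn* and *Tpm2*, while *Tpm1* had a log2 difference of -0.69 (limma adjusted p = 0.27). *Ldb3*, a protein of the Z-disc, had folds of 17.5 and 5.48 in GM against 5.83 and 4.68 in 3d DM, with RNA of 268 and 130 in GM against 1746 and 2220 in 3d DM. *Tpm2*, a tropomyosin, had folds of 3.30, 2.92, 1.93 and 2.15, and it was called also without each library in turn. *Ldb3* lost its call without 3d DM replicate 1 (adjusted p = 0.051) and *Ttn* without either 3d DM replicate (0.21 and 0.12). In *Tnni1* and *Tpm2* both GM folds lay above both 3d DM folds and in the other 4 genes the states overlapped. Of all merged peaks found in all 4 lists, 21.7% had both GM folds above both 3d DM folds.

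Of 37 integrins and matrix genes, 23 had a 3′ UTR peak in some list and 7 in all 4. *Mmp2*, a gelatinase, had folds of 3.50, 2.26, 2.54 and 1.98 and more RNA in 3d DM (log2 difference -1.96, limma adjusted p = 6.7e-05). *Col5a1* was near the threshold (adjusted p = 0.046). *Mmp2* lost its call without GM replicate 2 (adjusted p = 0.47) or either 3d DM replicate, and *Col5a1* without any 1 of the libraries. Of 399 zinc finger genes with a symbol of the Zfp series, 140 had a 3′ UTR peak in some list and 32 in all 4. The highest folds among them were those of *Zfp617*, with 25.4 and 21.9 in GM against 42.3 and 17.5 in 3d DM. Of the 32, 1 had more RNA in GM (*Zfp704*) and 1 in 3d DM (*Zfp275*), and both lost the call without any 1 of the libraries.

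Many genes whose 3′ UTR peak was listed in 1 state alone had more RNA in that state. A 3′ UTR peak in both GM lists, with no peak of any label in 3d DM, was found in 128 genes. Of the 118 tested, 36 (30.5%) had more RNA in GM, against 9.96% of all genes, and 1 had less. The reverse pattern was found in 86 genes, of which 45 of the 85 tested (52.9%) had more RNA in 3d DM, against 7.01% of all genes, and 1 had less. A gene could enter the test through the libraries of 1 state alone, where its RNA was high. With the filter met in 3 libraries, 27 of 107 genes had more RNA in GM (912 calls over all genes) and 26 of 65 had more in 3d DM (524 over all genes), and the median log2 difference moved from 0.70 to 0.64 and from -1.79 to -0.75. The share of calls was not tested against that of all genes. With the filter met in 3 libraries fewer genes were tested, and the share over all genes was not worked out. How far calling a peak depended on the amount of RNA was not tested. The counts fell to 0 and 16 without 3d DM replicate 1 (27 and 44 at an unadjusted limma p under 0.05), where the calls over all genes were 44 and 101. They fell to 16 and 24 without 3d DM replicate 2 (480 and 196 over all genes), to 20 and 41 without GM replicate 1 (573 and 679) and to 19 and 32 without GM replicate 2 (470 and 404).

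The highest folds among the GM genes were those of *Mcf2l* (20.1 and 14.9), *Fgf5*, a growth factor (16.6 and 14.1), *Eif2d*, an initiation factor (11.4 and 20.3), *Camk1d*, a calmodulin-dependent kinase (19.2 and 11.7), and *Rfx5*, a factor of the MHC class II promoters (11.4 and 19.6). Of the 5, *Camk1d* alone passed the RNA test, with values of 123 and 130 in GM against 19.1 and 22.1 in 3d DM (log2 difference 2.57, limma adjusted p = 9.2e-05). Its call was lost without 3d DM replicate 1 (adjusted p = 0.077), and with both 3d DM values below the filter of 25.1 it was tested through GM alone. In 3d DM they were *Zfyve27* (18 and 16.7), *Scn10a*, a sodium channel (25.4 and 10.9), *Acsl6*, an acyl-CoA synthetase (12.5 and 19.5), *Dbt*, a subunit of the branched-chain keto acid dehydrogenase (24.3 and 10.0), and *Thsd7a* (18 and 13.4). *Acsl6* had RNA of 51.8 and 15.1 in GM against 281 and 319 in 3d DM (adjusted p = 3.6e-09), and *Scn10a* of 20.2 and 3.03 and of 52.3 and 60.5 (adjusted p = 8.1e-04). Both lost their call without either 3d DM replicate, and *Scn10a* also without GM replicate 2. *Scn10a*, with both GM values below the filter, was tested through 3d DM alone. The other 3 had adjusted p-values of 0.69 to 0.84, so that a peak was listed in 1 state with RNA values of like size in both.

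**Figure D4:**
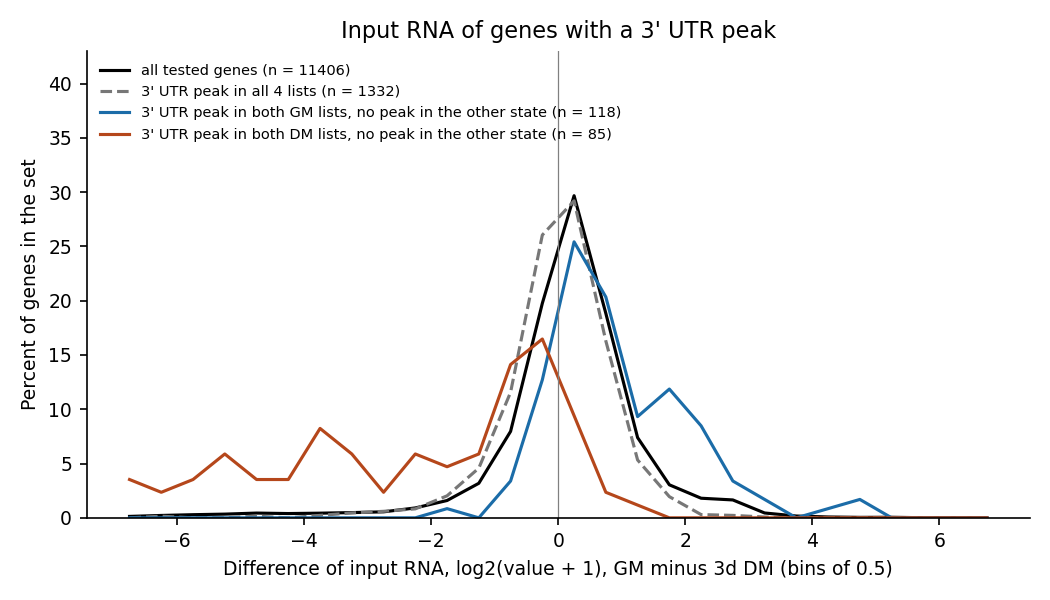
Distribution of the log2 difference of input RNA, GM minus 3d DM, in bins of 0.5, for all tested genes, genes with a 3′ UTR peak in all 4 lists, and genes whose 3′ UTR peak was in 1 state alone. The median was 0.06 for genes with a peak in all 4 lists, 0.70 for those with a GM peak alone and -1.79 for those with a 3d DM peak alone (-0.75 where 3 libraries had to pass the filter), against 0.22 for all genes. Genes past -7 or 7 are not drawn.

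Of the 1387 genes with a 3′ UTR peak in all 4 lists, 159 changed their RNA by limma at an adjusted p under 0.05. Among the 1332 tested, 63 (4.73%) had more in GM and 96 (7.21%) had more in 3d DM, against 9.96% and 7.01% of 11406 genes. The median log2 difference was 0.06, against 0.22 for all genes, and with median-of-ratios scaling -0.14 against 0.02, so that the genes lay 0.16 below all genes under both. That scaling moved the median of all genes by over 0.1 and the counts to 101 and 218, with 1325 and 1340 calls over all genes in place of 1136 and 800. A peak in all 4 lists asks for RNA in both states, and its part in these shares was not tested. Without 3d DM replicate 1 the counts were 2 and 12, without 3d DM replicate 2 they were 24 and 17, without GM replicate 1 they were 14 and 63, and without GM replicate 2 they were 13 and 31. Calls over all genes also dropped in these fits, to the numbers given above for each library. Standard errors (0.40 to 0.65) followed the level of a gene and not its own replicates. The smallest adjusted p-values of the named genes depended on the scaling. With median-of-ratios factors the limma adjusted p of *Tnni1* was 0.0018 in place of 4.5e-45, at a log2 difference of -6.30.

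The largest falls on differentiation among these genes were those of *Ube2c*, *Gen1* (described above), *Nid1*, *Ccne2* and *H2afx*. *Ube2c*, the ubiquitin-conjugating enzyme of the anaphase-promoting complex, had RNA of 1361 and 1549 in GM against 89.3 and 194 in 3d DM (log2 difference 3.45 ± 0.45 SE, limma adjusted p = 8.0e-13). Its fold was 12.2 and 13.9 in GM against 25.4 and 19.6 in 3d DM, on a peak that was 89.4% lower-case sequence. *Ccne2*, the cyclin that starts S phase, had RNA of 122 and 196 in GM against 18.5 and 36.6 in 3d DM (2.52, adjusted p = 6.6e-05) and folds of 5.07, 3.13, 11.6 and 9.19, under a peak that overlapped one of *Ints8* on the other strand. In both genes the folds were higher in 3d DM, where the RNA was lower, without a call in the strength test. Of the 3′ UTR peaks in that test, 13.9% had both 3d DM folds above both GM folds, as had 9.22% of all peaks fitted. *Gen1* went the other way, with folds of 164 and 75.9 in GM against 10.6 and 14.2 in 3d DM. In *H2afx* and *Nid1* the folds of the states overlapped, so these falling genes showed no common direction of fold.

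*H2afx*, the histone variant of DNA damage foci, had RNA of 743 and 919 in GM against 108 and 217 in 3d DM (log2 difference 2.42, limma adjusted p = 2.1e-06). Its folds were 7.33, 5.98, 4.69 and 6.59 at chr9:44335341-44336077, which was most of its 884 nt 3′ UTR and held the GGACT word shown. *Nid1*, nidogen of the basement membrane, had RNA of 7392 and 6375 in GM against 946 and 1140 in 3d DM (2.72, adjusted p = 1.7e-09) and folds of 2.45, 1.80, 2.15 and 3.19. *Ube2c* and *Nid1* were also called without each library in turn. *Ccne2* and *H2afx* lost the call without 3d DM replicate 1 (adjusted p = 0.13 and 0.062).

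The largest rises on differentiation were those of *Mybph*, *Tnni1*, *Adora1*, *C1qtnf3* and *Erbb3*, of which the first 2 encode proteins of the sarcomere. *Mybph*, a myosin-binding protein, had RNA of 231 and 60.2 in GM against 7459 and 13608 in 3d DM (log2 difference -6.40 ± 0.43 SE, limma adjusted p = 1.6e-47). With median-of-ratios factors *Mybph* had a log2 difference of -6.61 and a limma adjusted p of 0.0018. Its folds were 2.62 and 3.31 in GM against 3.08 and 2.66 in 3d DM at chr1:134200667-134201232, and those of the states overlapped. *Tnni1*, the slow troponin I, had RNA of 439 and 125 in GM against 14922 and 17243 in 3d DM (-6.09, adjusted p = 4.5e-45) and folds of 4.67, 3.35, 1.78 and 2.97. *C1qtnf3*, a secreted protein of the C1q and TNF family, had RNA of 577 and 341 in GM against 7531 and 14248 in 3d DM (-4.54, adjusted p = 1.3e-25) and folds of 3.87, 3.58, 1.77 and 2.3, on a peak that was 66.3% lower-case sequence.

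*Erbb3*, a receptor for neuregulins, had RNA of 216 and 67.3 in GM against 1140 and 1930 in 3d DM (log2 difference -3.61, limma adjusted p = 6.3e-14), with folds of 8.75 and 3.30 in GM against 2.65 and 3.22 in 3d DM. *Adora1*, the adenosine A1 receptor, had RNA of 9.54 and 4.02 in GM against 174 and 261 in 3d DM (-4.88, adjusted p = 2.2e-14). Both GM values were below the filter, so it was tested through 3d DM alone. Its peak at chr1:134200660-134201349 on the minus strand overlapped that of *Mybph* on the plus strand, with near-equal folds of 2.71, 3.41, 3.08 and 3.01. The libraries were made with a stranded kit, but whether peaks were called and reads counted by strand is not given in the sources used here, so the signals of *Mybph* and *Adora1* cannot be told apart. Of the 1067 merged 3′ UTR peaks in all 4 lists on named chromosomes, 100 (9.37%) overlapped a peak on the other strand. *Mybph*, *Tnni1* and *C1qtnf3* were also called without each library in turn, while *Adora1* lost its call without 3d DM replicate 1 (adjusted p = 0.051) and *Erbb3* without either 3d DM replicate (0.062 and 0.069).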

How the data were processed

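m6A was mapped by MeRIP-seq, with RNA precipitated by an anti-m6A antibody (IP) and matched input RNA, in 2 GM and 2 3d DM samples. According to the methods and the submitters' processing notes, the authors aligned trimmed reads to mm10 with HISAT2 2.1.0 and called peaks for each sample with exomePeak at P ≤ 0.05, without pooling replicates. Each deposited peak list gives a p-value and a fold, the ratio of IP over input, both made by the authors' peak caller. The deposited expression table holds a signal per gene, gene counts that the authors normalized (edgeR is named in the notes), with column totals from 12534657 to 12536233. Its values are neither whole nor multiples of a step, so the depth of each library is unknown, and no counting interval or floor is given. It is not scaled by length, so RNA levels are not compared between genes. No column was set aside unused (0).

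Samples were grouped by their labels. Rows with the same position were counted once. Positions were placed on the transcripts that the lists name, whose 3′ UTRs were taken from GENCODE M21 (95.1% of the rows) and read from the RefSeq mm10 genome. Peaks of the 4 lists that shared at least 1 base on a strand were merged, and the log2 of the highest fold was compared where all 4 lists had the peak. Both this and log2(RNA + 1) were tested with limma 3.58.1 (R 4.3.3, trend, Benjamini-Hochberg, adjusted p under 0.05 over all features). Adjusted p-values in the text come from this limma test. Fold changes on the log2(value + 1) scale understate those of low genes. Genes with RNA of at least 25.1 in 2 libraries were tested. Single values were compared with two-sided exact permutation tests. Python 3.11.15, pandas 2.3.3, scipy 1.17.1 and pysam 0.24.0 were used.

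On simulated data, limma recovered 34 of 200 genes with a planted log2 RNA difference of 1 and 199 of 200 with 2. Named genes were the 8 peaks of highest mean fold, 5 in each direction by difference in fold among those not overlapping, the 3 genes with most peaks, 5 genes for each state by fold among those with peaks in 1 state alone, 5 in each direction by RNA difference, and members of the gene lists, including markers of other cell types. Regulators of myogenesis with a peak in fewer than 4 lists, and called members of the Zfp list, were added after their values were seen. The gene groups, lists and tests were chosen with earlier results of these data known. Alternatives were other scalings, filters, pseudocounts, peak thresholds, overlap rules, the replicate block and leaving out each replicate.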

Additional observations from a re-analysis of the deposited data

How the results depend on the processing

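No comparison of a single value between GM and 3d DM could pass 0.05 with 2 libraries against 2. The difference in 3′ UTR share (-1.77 percentage points) was negative under every alternative run, from -3.49 with folds of at least 4 to -1.20 without GM replicate 1. The difference in median fold (-0.025) became 0.10 for peaks with p of at most 1e-05, 0.08 for folds of at least 4 and 0.01 for rows counted as deposited, and ran from -0.28 to 0.23 without 1 replicate. With folds of at least 4 the log2 difference to CDS peaks was 0.028 and to stop codon peaks 0.038. Without 1 replicate the difference in genes ran from -384 to 351, in relative position from -2.05 to 3.29 percentage points, and in distance from the CDS from -9.5 to 50.8 nt. The difference in DRACH ratio (0.02) was -0.047 for GGACT alone. Shared peaks fell to 43.1% with 50% reciprocal overlap. The cause of these shifts was not tested.

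limma called 0 of the 3′ UTR peaks for strength under each alternative run (21 to 73 at an unadjusted p under 0.05). The RNA counts of 63 (GM) and 96 (3d DM) became 101 and 218 with median-of-ratios factors (1325 and 1340 over all genes, from 1136 and 800), 103 and 210 with trimmed-mean factors (1365 and 1307), 476 and 412 for genes with a 3′ UTR peak in at least 1 list, and ran from 2 to 24 and from 12 to 63 without 1 replicate. The set with a peak in at least 1 list held 5473 tested genes in place of 1332, so its counts are of a larger set. Its 476 and 412 calls stand beside 1136 and 800 over all 11406 genes tested. With other filters, pseudocounts and no trend the counts of 63 and 96 were within 1.5 times. For genes with a peak in 1 state alone, alternatives chosen after seeing the data gave, without 1 replicate, counts of 0 to 20 in GM (36 with all) and 16 to 41 in 3d DM (45 with all), and 26 in 3d DM with the filter met in 3 libraries, where fewer genes were tested. Leaving out peaks on lower-case sequence, also chosen after seeing the data, reversed no fold difference. Of 40 named genes called for RNA, 8 were called without each library in turn, 32 lost the call without 3d DM replicate 1, and 0 reversed in any alternative. With 2 pairs, replicate numbers could not be shown to pair samples (correlation of deviations 0.13 for strength and 0.29 for RNA). With the replicate block, strength had 0 calls (73 at an unadjusted p under 0.05) and 10 of the 40 named calls were lost. The RNA counts were 30 and 54, where the calls over all genes were 705 and 593.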
